A study of Mus musculus with 11 samples.

Results

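The genes described here are 9 members of the complement system: C1qa, C1qb and C1qc, C2, C3, C4b and Cfb, which encode components of the cascade, and C3ar1 and C5ar1, which encode receptors for its cleavage products. They were found by gene symbol among the 55487 genes counted in each heart, and 8 of the 9 had enough reads to be compared. The hearts came from embryonic day 14.5 (E14.5) mouse embryos of timed matings between heterozygous parents of the line B6; 129P2-Pde2A<tm1Dgen>: 5 Pde2A-/- hearts (replicates A, B, 14, D and 15) and 6 Pde2A+/+ hearts (replicates 7, 11, 6, 8, H and E). Pde2A is a phosphodiesterase that breaks down cAMP and cGMP, and the gene is disrupted in all cells of the embryo, not in the heart alone. None of the hearts was treated, each was sequenced whole as a library of its own, and sex and litter of single hearts are not given. The question was which transcripts differ between the genotypes.

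Complement is a cascade of secreted proteases and binding proteins that tags microbes, immune complexes and dying cells. C1q, a hexamer of subunits built from the A, B and C chains, recognises such targets and starts the classical arm, in which C4 and C2 are cleaved to form an enzyme that splits C3. Cfb is the catalytic part of the corresponding enzyme of the alternative arm. C3 is the protein on which all arms converge, and its small fragment C3a signals through C3ar1, while C5a signals through C5ar1 on myeloid cells. Liver cells make most circulating C3, C4 and C2, whereas tissue macrophages are the usual source of C1q.

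The 3 C1q genes stand side by side on chromosome 4 within 18.7 kb (GRCm38, 136880129 to 136898803, minus strand), in the order C1qb, C1qc and C1qa. C4b (34728380 to 34743882), Cfb (34856374 to 34862518) and C2 (34862604 to 34898265) lie within 169.9 kb of each other on chromosome 17, and C3 lies on the same chromosome at 57203970 to 57228136. C3ar1 is on chromosome 6 at 122847138 to 122856161 and C5ar1 on chromosome 7 at 16246743 to 16259540. All 9 genes are read from the minus strand.

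RefSeq (GRCm38.p6) gave start sites for 5 of the 9 genes, C1qb, C1qc, C3, C3ar1 and C5ar1. The 250 bases before the start of 4 of them are shown because C1qb and C1qc moved together and because C3 and C5ar1 had the largest fold changes of a component and of a receptor. Each runs 5′ to 3′ on the strand of the gene and ends next to its start site, with capitals at every match to the 6 motifs searched on both strands.
C1qb promoter, chr4:136886201-136886450, minus strand: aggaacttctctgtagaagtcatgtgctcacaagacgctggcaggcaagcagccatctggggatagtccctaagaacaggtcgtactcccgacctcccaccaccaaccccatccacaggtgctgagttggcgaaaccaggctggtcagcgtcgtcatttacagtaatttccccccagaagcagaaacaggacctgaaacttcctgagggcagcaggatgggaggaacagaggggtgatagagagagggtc
C1qc promoter, chr4:136892915-136893164, minus strand: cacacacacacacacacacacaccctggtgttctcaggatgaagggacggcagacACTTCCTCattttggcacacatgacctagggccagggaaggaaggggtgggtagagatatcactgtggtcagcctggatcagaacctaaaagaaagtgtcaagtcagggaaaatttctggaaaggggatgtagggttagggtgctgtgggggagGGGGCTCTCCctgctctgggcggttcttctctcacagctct
C3 promoter, chr17:57228137-57228386, minus strand: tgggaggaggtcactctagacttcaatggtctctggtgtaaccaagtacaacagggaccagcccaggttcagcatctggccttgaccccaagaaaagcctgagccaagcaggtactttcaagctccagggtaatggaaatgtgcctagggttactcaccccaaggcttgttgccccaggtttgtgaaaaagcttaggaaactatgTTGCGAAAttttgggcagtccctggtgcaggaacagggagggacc
C5ar1 promoter, chr7:16259339-16259588, minus strand: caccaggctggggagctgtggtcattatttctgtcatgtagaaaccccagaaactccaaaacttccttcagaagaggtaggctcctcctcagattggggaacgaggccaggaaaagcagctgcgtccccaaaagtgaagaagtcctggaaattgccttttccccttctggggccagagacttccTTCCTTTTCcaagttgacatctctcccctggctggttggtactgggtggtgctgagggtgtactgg

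The C1qc promoter held the PU.1 core GAGGAAGT on the opposite strand at -195, present in 2.44% of 32851 promoters of this length, and an NF-kB match at -41, present in 7.25%. C3 had the C/EBP word TTGCNNAA at -45, found in 9.56% of promoters. C5ar1 had the ISRE core GAAANNGAA on the opposite strand at -66, found in 7.13%. The gene positions came from another annotation, by which C1qc and C5ar1 begin within these windows. The NF-kB match of C1qc and the ISRE match of C5ar1 lie inside the genes so placed. C1qb and C3ar1 held none of the 6 motifs, which also included GAS (TTCNNNGAA, 7.02%) and CRE (TGACGTCA, 1.55%). These matches are descriptions of letters in a window and no binding was measured.

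Each heart gave 35865537 to 42835382 reads on gene strands, and the totals did not differ by genotype (exact permutation test, two-sided, p = 0.87). The targeted gene Pde2a had 0 to 2 counts in each library and 7 in all. Gm45837 covers 64.32% of the exon bases of Pde2a on the same strand, and a read within both genes is counted for neither. These counts therefore leave the labels unchecked. Cardiomyocyte markers such as Myh6, Myh7 and Tnnt2 were abundant in all 11 hearts. Transcripts of hepatocytes stood out in 4 hearts, Pde2A+/+ replicates 11, H and E and Pde2A-/- replicate D, where albumin (Alb) was between 11.5 and 46.6 CPM (counts scaled to library size) against at most 0.678 in the other 7 hearts.

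Most of these complement transcripts were more abundant in Pde2A-/- than in Pde2A+/+ hearts. Of the 8 genes tested, 7 rose, C1qa, C1qb, C1qc, C3, C4b, C3ar1 and C5ar1, at an adjusted p under 0.05 (quasi-likelihood F test of edgeR, adjusted by Benjamini-Hochberg over 24177 genes), where 8.93% of all genes tested were higher. None of the 8 fell, at an unadjusted p under 0.05 or with DESeq2 either, against 5.67% of all genes lower. A fold change of at least 2 was reached by 5 of the 7, which 2.21% of all genes did together with the adjusted p. The median log2 fold change of the 8 genes was 1.06, beside -0.02 over all genes tested. For 6 genes every Pde2A-/- heart lay above every Pde2A+/+ heart, as for 5.38% of all genes. The exceptions were C3, for which replicate A lay within the Pde2A+/+ range, and C2, which did not pass the test.

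**Figure D1:**
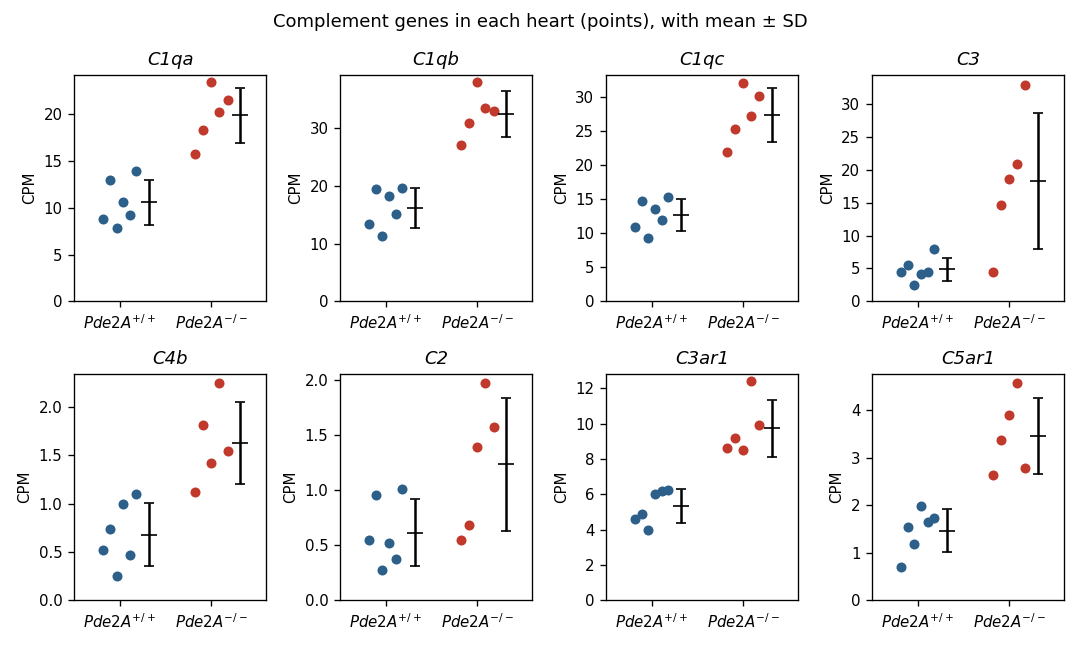
CPM of 8 complement genes (vertical axes, each from 0) in the 6 Pde2A+/+ hearts (blue points) and the 5 Pde2A-/- hearts (red points), with the mean and SD of each genotype as black bars. The genotypes do not overlap for C1qa, C1qb, C1qc, C4b, C3ar1 and C5ar1, whereas the lowest Pde2A-/- heart of C3 (4.54 CPM) and of C2 (0.548 CPM) lies among the Pde2A+/+ hearts.

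Levels were compared between genes per kilobase of the longest coding transcript. In Pde2A+/+ hearts the C1q chains stood highest, with C1qb at 14.9 ± 3.15, C1qc at 10.5 ± 1.94 and C1qa at 10.2 ± 2.34 CPM per kb (mean ± SD, n = 6). Next came C3ar1 at 1.24 ± 0.221, C3 at 0.944 ± 0.354 and C5ar1 at 0.577 ± 0.18 CPM per kb, and last C2 at 0.232 ± 0.114 and C4b at 0.126 ± 0.0609. At these lengths neighbours in the order overlapped in their mean ± SD within each of these 3 tiers, and between the tiers they did not. Over the exons of all its transcripts (1931 bases) C1qc was at 6.53 ± 1.21 CPM per kb in Pde2A+/+ hearts. In Pde2A-/- hearts it was then at 14.1 ± 2.06 CPM per kb. The order of C1qc and C1qa thus depends on the length chosen. Of the 50-base words of this C2 transcript, 57.99% also lie in Gm20547, and reads within both genes are left uncounted. The level of C2 may thus be too low in both genotypes, which leaves its place and its gap to the next tier uncertain. Over the 2216 bases that C2 alone holds among the exons of all its transcripts, it was at 0.277 CPM per kb in Pde2A+/+ hearts. That length is not the one used for the order. In Pde2A-/- hearts C1qb stood at 29.8 ± 3.64 CPM per kb (n = 5) and C1qc at 22.7 ± 3.31. These barely parted in their mean ± SD, and their single hearts overlapped. C1qa at 19.1 ± 2.82 overlapped with C1qc in mean ± SD. C3 at 3.56 ± 2.0 stood above C3ar1 at 2.26 ± 0.372, although their ranges overlapped, and C5ar1 followed at 1.36 ± 0.317. C2 at 0.467 ± 0.228 and C4b at 0.303 ± 0.0793 CPM per kb remained last and overlapped.

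C1qa, the gene of the A chain, had 15.8, 18.3, 23.4, 20.2 and 21.5 CPM in Pde2A-/- replicates A, B, 14, D and 15. In Pde2A+/+ hearts its lowest, median and highest values were 7.84, 9.93 and 13.9 CPM. All Pde2A-/- hearts were above all Pde2A+/+ hearts, replicate 14 was the highest and replicate A the lowest of them. The means were 19.9 ± 2.94 and 10.6 ± 2.43 CPM, a log2 fold change of 0.91 (SE 0.148, adjusted p = 0.00183, edgeR).

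C1qb, which encodes the B chain and was the most abundant of the 3, had 27.0, 30.9, 37.9, 33.5 and 32.95 CPM in the same order of Pde2A-/- hearts. The Pde2A+/+ hearts ran from 11.3 over a median of 16.7 to 19.6 CPM. The highest Pde2A+/+ heart thus lay below the lowest Pde2A-/- heart by more than the SD of either genotype, 3.43 and 3.97 CPM. The log2 fold change was 1.001 (SE 0.136, adjusted p = 4.6e-04, edgeR). C1qc, the gene of the C chain, had 21.95, 25.3, 32.1, 27.2 and 30.1 CPM in Pde2A-/- hearts and 9.32, 12.7 and 15.4 CPM as the lowest, median and highest Pde2A+/+ values. It was also highest in replicate 14 and lowest in replicate A, without overlap of the genotypes. Its log2 fold change, 1.12, was the largest of the chains (SE 0.13, adjusted p = 1.33e-04, edgeR).

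The chains were then set against each other within each heart. Within the genotypes C1qa, C1qb and C1qc had coefficients of variation of 12.2 to 14.8% in Pde2A-/- and of 18.5 to 23% in Pde2A+/+ hearts. The log2 ratio of C1qa to C1qb was -0.71 ± 0.063 in Pde2A-/- and -0.62 ± 0.108 in Pde2A+/+ hearts, a difference of -0.09 (exact permutation test, two-sided, p = 0.128, adjusted over 5 ratios p = 0.213). That of C1qc to C1qb was -0.25 ± 0.072 against -0.36 ± 0.055, a difference of 0.10 (p = 0.0195, adjusted p = 0.0974, same exact test). Neither passed, and 2 of 5 Pde2A-/- hearts were above all Pde2A+/+ hearts in the ratio of C1qc to C1qb. Without Pde2A+/+ replicate 6 the latter difference was 0.12 with an adjusted p of 0.0397 (exact permutation test).

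Over the 11 hearts, the log2 profile of C1qb was closest to that of C1qc among 14024 genes averaging 1 CPM or more, at a mean absolute difference of 0.0557 after each gene was centred. The genes closest to the mean profile of the 3 chains, apart from the chains themselves, were Mrc1 (0.101), Adgre1 (0.106) and Aif1 (0.119). All 3 belong to the list of macrophage markers examined here. The hearts share library, depth and genotype in this measure, so it is a description.

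**Figure D2:**
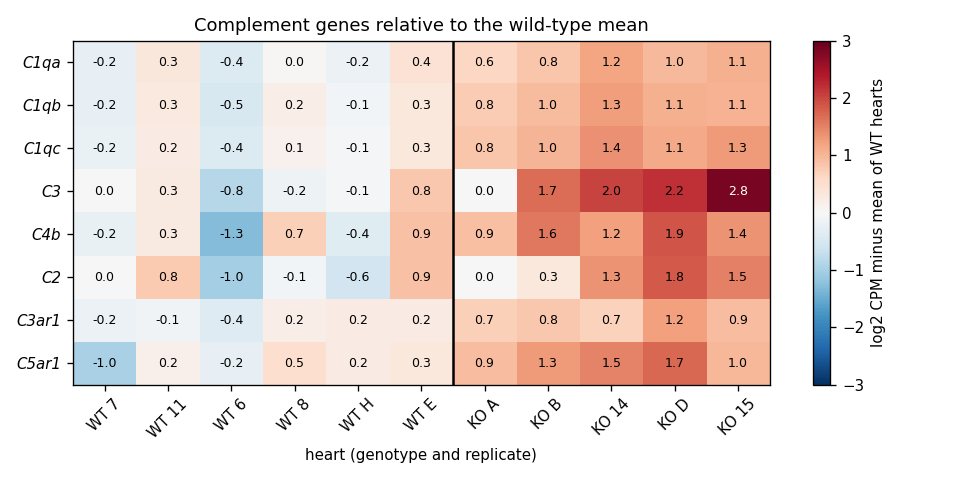
Log2 CPM of 8 complement genes (rows) in each heart (columns), minus the mean of the 6 Pde2A+/+ hearts, with red above and blue below that mean and the value printed in each cell. The C1q rows are nearly even across Pde2A-/- hearts, while C3 runs from about 0 in Pde2A-/- replicate A to 2.8 in replicate 15.

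C4b and C2 encode the proteins cleaved after C1q has bound. C4b had 1.12, 1.82, 1.42, 2.25 and 1.54 CPM in Pde2A-/- replicates A, B, 14, D and 15, and 0.247, 0.628 and 1.105 CPM as the lowest, median and highest Pde2A+/+ values. The genotypes did not overlap, but the lowest Pde2A-/- heart, replicate A, and the highest Pde2A+/+ heart, replicate E, nearly met. The means were 1.63 ± 0.427 and 0.679 ± 0.328 CPM, with a log2 fold change of 1.26 (SE 0.315, adjusted p = 0.0204, edgeR). Between 9 and 81 reads per heart lay behind these values. The neighbouring gene C4a shares 35.18% of the 50-base words of the C4b transcript, so some reads could not be given to either, and C4a itself had a log2 fold change of -0.40 (adjusted p = 0.434, edgeR). With the counts of C4a and C4b summed, the log2 fold change was 0.88 and no longer passed (adjusted p = 0.0509), and without Pde2A-/- replicate D that of C4b was 1.11 (adjusted p = 0.0645).

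C2 is the protease of the classical enzyme that splits C3. Its values were 0.548, 0.685, 1.39, 1.97 and 1.57 CPM in Pde2A-/- replicates A, B, 14, D and 15, against 0.274, 0.535 and 1.01 CPM as the lowest, median and highest Pde2A+/+ values. Replicates 14, D and 15 were above all Pde2A+/+ hearts, and A and B lay among them. The log2 fold change of 0.999 had a 95% interval from 0.17 to 1.83 and did not pass (SE 0.385, adjusted p = 0.0971, edgeR), while DESeq2 gave 1.005 with an adjusted p of 0.0466. Without Pde2A-/- replicate A it was 1.19 (adjusted p = 0.0363, edgeR). With any other single heart left out it did not pass. The lowest of these was 0.77 without Pde2A-/- replicate D (adjusted p = 0.253, edgeR). On the opposite strand lay 168 to 263 reads per heart, against 10 to 71 on its own. Counted without regard to strand, C2 had 7 to 65 reads per heart. Its log2 fold change was then 1.089 and did not pass either (adjusted p = 0.104, edgeR).

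Cfb could not be measured in these files. It had 9 counts in all hearts together, 0 to 3 per heart, at or under the limit of 3 counts in both genotypes, and no fold change is given. The annotation places Gm20547 across C2 and Cfb on the same strand (chromosome 17, 34856412 to 34882042). Its exons cover 79.5% of the exon bases of Cfb and 42.77% of those of C2, and a read within both genes is counted for neither. Gm20547 itself had 0 counts. Over the 579 exon bases that belong to Cfb alone, its level was 0.0365 CPM per kb in Pde2A+/+ hearts, and over the 2216 own bases of C2 that of C2 was 0.277.

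**Figure D3:**
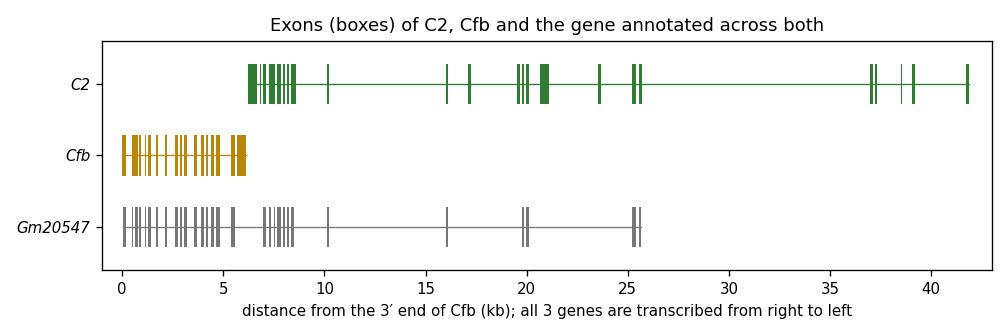
Exons (boxes) of C2, Cfb and Gm20547 on the same strand, drawn to scale against the distance from the 3′ end of Cfb in kb. Gm20547 has a box at nearly every exon of Cfb and at many exons of C2, which is where 79.5% and 42.77% of their exon bases are shared.

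C3 had the largest fold change of the 8 genes and, in Pde2A-/- hearts, the largest relative spread. It had 4.54 CPM in Pde2A-/- replicate A, 14.6 in replicate B, 18.6 in replicate 14, 20.8 in replicate D and 32.9 in replicate 15. The lowest, median and highest Pde2A+/+ hearts had 2.55, 4.47 and 7.996 CPM. Replicate A thus lay near the median of the Pde2A+/+ hearts, while the other 4 Pde2A-/- hearts were all above the highest of them. The means were 18.3 ± 10.3 and 4.85 ± 1.82 CPM, a log2 fold change of 1.91 (SE 0.385, adjusted p = 0.00713, edgeR). The coefficient of variation was 56.2% in Pde2A-/- hearts, with a 7.24-fold range, against 12.2 to 14.8% for the C1q chains in the same hearts. With single hearts left out the log2 fold change ran from 1.59, without Pde2A-/- replicate 15, to 2.16, without replicate A.

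C3 was also among the immune genes that the study chose for RT-qPCR on the strength of this sequencing, with primers that amplify bases 2622 to 2753 of its 5136-base transcript. They are shown because they mark which part of the transcript that assay read.
C3 forward primer: cgcaacgaacaggtggagatc
C3 reverse primer: ctggaagtagcgattcttggcg

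The closest profiles to that of C3 were those of Egln3 (mean absolute log2 difference 0.293 over the 11 hearts), Mt1 (0.303) and Adm (0.318). For C4b they were F13a1 (0.254), Hk3 (0.256) and Ms4a4a (0.295). This distance is not scaled to the spread of a gene, which was larger for C3 than for the C1q chains. It is therefore not compared between them. The log2 ratio of C3 to C4b was 3.23 ± 0.886 in knockout and 2.803 ± 0.419 in wild-type hearts, and the difference of 0.43 did not pass (exact permutation test, two-sided, p = 0.31, adjusted p = 0.31). It was 0.74 without Pde2A-/- replicate A (adjusted p = 0.0833, same exact test), 0.14 without Pde2A-/- replicate 15 and 0.265 without Pde2A+/+ replicate 8.

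Hepatocyte transcripts overlapped between the genotypes. The summed CPM of 10 hepatocyte markers was 42.1 to 109.1 in Pde2A-/- and 30.2 to 165.6 in Pde2A+/+ hearts, of which Trf gave 36.2 to 66.1 against 25.6 to 45.8 CPM. Trf was the single marker that passed, and it was higher (log2 fold change 0.73, adjusted p = 0.0172, edgeR). Most of the other markers had negative log2 fold changes that did not pass, such as -2.52 for Alb (adjusted p = 0.28), and the median of the 10 was -1.95. Alb was at 0.165 CPM in the Pde2A-/- heart with the most C3, replicate 15, and at 46.6 CPM in the Pde2A+/+ heart with the most C3, replicate E. When the 4 hearts with Alb over 10 CPM were left out, the log2 fold changes of 3 genes were at least as large without passing, 2.24 for C3 (adjusted p = 0.0892), 1.32 for C4b (adjusted p = 0.132) and 1.295 for C5ar1 (adjusted p = 0.0915, edgeR). The 3 C1q chains and C3ar1 still passed in those 4 Pde2A-/- and 3 Pde2A+/+ hearts, where 482 genes were higher in place of 2160.

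Both anaphylatoxin receptors rose. C3ar1, the receptor for C3a, had 8.64, 9.18, 8.49, 12.4 and 9.95 CPM in Pde2A-/- replicates A, B, 14, D and 15 and 4.001, 5.45 and 6.22 CPM as the lowest, median and highest Pde2A+/+ values. The genotypes did not overlap, and replicate D was the highest of all hearts. The log2 fold change was 0.87 (SE 0.138, adjusted p = 0.00151, edgeR). C5ar1, the receptor for C5a, had 2.64, 3.38, 3.91, 4.58 and 2.78 CPM in Pde2A-/- hearts and 0.704, 1.595 and 1.99 CPM as the lowest, median and highest Pde2A+/+ values. Replicate D was again the highest, and every Pde2A-/- heart was above every Pde2A+/+ heart. Its log2 fold change was 1.24 (SE 0.233, adjusted p = 0.00486, edgeR).

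The log2 ratio of C3ar1 to C5ar1 was 1.495 ± 0.274 in Pde2A-/- and 1.87 ± 0.386 in Pde2A+/+ hearts, a difference of -0.38 that did not pass (exact permutation test, two-sided, p = 0.0801, adjusted p = 0.2), and without Pde2A+/+ replicate 7 it was -0.23. The profile of C3ar1 was most like those of Tnfrsf1b (0.0918), Adgre1 (0.115) and Tlr13 (0.118). That of C5ar1 was most like Tlr13 (0.187), Slc15a3 (0.226) and Acer2 (0.234). C5ar2, a receptor for C5a next to C5ar1 on chromosome 7, averaged 2.45 ± 0.413 CPM in knockout and 1.23 ± 0.241 in wild-type hearts, a log2 fold change of 0.99 (adjusted p = 0.00242, edgeR) without overlap.

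The same hearts stood at the ends for most genes. Pde2A-/- replicate A was the lowest knockout heart in 7 of the 8 genes, all but C3ar1, which was lowest in replicate 14. Among Pde2A+/+ hearts replicate 6 was the lowest in 7 of 8, all but C5ar1, and replicate E the highest in 7 of 8, all but C5ar1. Replicate D was the highest knockout heart in 4 genes, replicate 14 in 3 and replicate 15 in 1.

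Macrophage transcripts moved with these genes. Of 17 macrophage markers, none of which is among the 9 genes, 11 were higher in Pde2A-/- hearts (edgeR, median log2 fold change 0.81). They included Csf1r, with 59.6 to 75.3 CPM in Pde2A-/- and 31.5 to 52.8 in Pde2A+/+ hearts, and Fcgr1, with 5.12 to 8.26 and 2.49 to 3.61. Mertk and Maf did not pass, at log2 fold changes of 0.19 and 0.16. The summed markers were 293 to 375.4 CPM in Pde2A-/- and 167.2 to 260 CPM in Pde2A+/+ hearts, without overlap and with no marker at 0. In whole hearts, more cells of a type and more RNA per cell cannot be told apart, and neither can fewer cells and less RNA per cell.

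As a share of that sum, the C1q chains together were 22.1 to 25.1% in Pde2A-/- and 17 to 20.3% in Pde2A+/+ hearts, which did not overlap. C1qb and C1qc were also clear of overlap on this scale, at 8.78 to 10.2% against 6.79 to 8.15% and at 7.49 to 8.62% against 5.42 to 6.38%. C1qa overlapped, with 5.39 to 6.29% against 4.27 to 5.78%, and so did C3ar1, with 2.28 to 3.44% against 1.87 to 3.27%. C3 was 1.55 to 8.76% of the sum in Pde2A-/- and 1.52 to 3.32% in Pde2A+/+ hearts, with 4 of 5 knockout hearts above. C5ar1, at 0.741 to 1.27% against 0.362 to 0.867%, was above in 4 of 5 as well, and C4b, at 0.381 to 0.624% against 0.148 to 0.458%, in 2 of 5. The part of macrophage RNA in the rise of each gene was not tested.

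**Figure D4:**
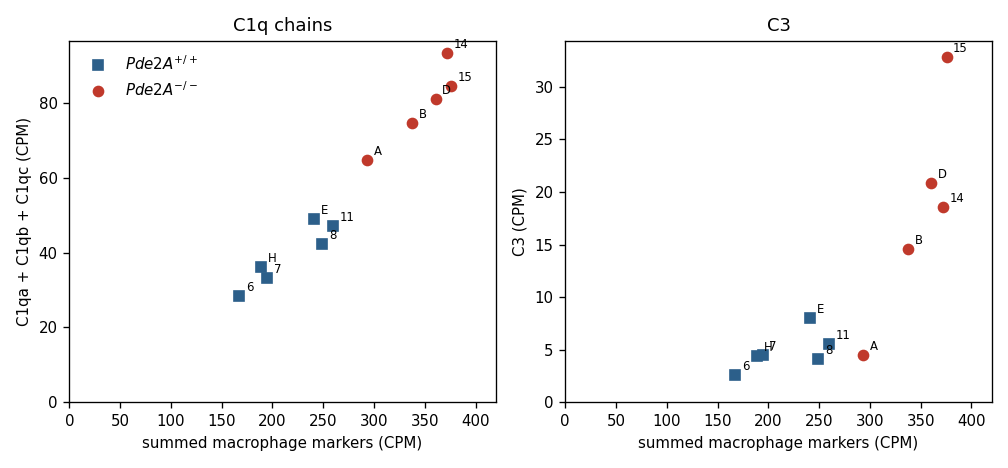
Summed CPM of C1qa, C1qb and C1qc (left) and CPM of C3 (right) against the summed CPM of 17 macrophage markers in each heart, red circles for Pde2A-/- and blue squares for Pde2A+/+ hearts, labelled by replicate. The C1q sum follows the markers from 28.5 to 93.4 CPM, whereas C3 spreads from 4.54 to 32.9 CPM over Pde2A-/- hearts with markers between 293 and 375.4 CPM.

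Monocyte and neutrophil markers moved too. Of the 9 tested, 5 were higher, such as S100a8 with 3.98 to 13.4 against 0.157 to 1.76 CPM and Mpo with 3.53 to 10.2 against 0.0548 to 1.83, and Ccr2 was lower. Their sum was 19.05 to 49.96 CPM in Pde2A-/- and 2.93 to 13.2 CPM in Pde2A+/+ hearts, and Ly6g, which defines neutrophils, had at most 3 counts in any heart. Replicate D, highest for C3ar1, C5ar1, C4b and C2, was also the highest in this sum. Among Pde2A-/- hearts, replicate D was the highest in the hepatocyte (109.1 CPM) and the fibroblast and epicardial (8174 CPM) sums as well. Replicate A, the lowest for most complement genes, had 25.55 CPM of monocyte and neutrophil markers. That was more than in replicates B (19.05 CPM) and 14 (19.21 CPM). Endothelial markers summed to 1012 to 1100 CPM in Pde2A-/- and 847.4 to 1009 CPM in Pde2A+/+ hearts, with 2 of 6 higher and 1 lower. Cardiomyocyte markers (35550 to 42540 against 34910 to 46320 CPM, 1 of 10 higher and 2 lower), fibroblast and epicardial markers (4886 to 8174 against 4252 to 7976 CPM, 2 of 9 higher) and erythroid markers (2614 to 4414 against 2659 to 11070 CPM, 2 of 6 higher and 1 lower) overlapped in their sums. None of these was tested for its part in the complement genes.

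Beyond the 9 genes, 52 other complement genes were examined by role, of which 41 were tested. Among them 10 rose and none fell (edgeR, adjusted p under 0.05), with 12 higher and 2 lower at an unadjusted p under 0.05, and 10 higher and none lower with DESeq2. Their median log2 fold change was 0.18. Over all genes the same fit called 8.93% higher and 5.67% lower. Of the 10, C1ra and Fcna reached a fold change of 2.

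The genes that rose came from several steps. C1ra, a protease that C1q activates, had 1.08 ± 0.279 against 0.465 ± 0.198 CPM (log2 fold change 1.20, adjusted p = 0.0144, edgeR), while C1s1 and C1s2 did not pass. Fcna, a ficolin that starts the lectin arm, had 2.25 ± 0.858 against 0.772 ± 0.456 CPM (1.54, adjusted p = 0.0119). Cfp, properdin, which stabilises the enzyme of the alternative arm, had 5.93 ± 0.788 against 3.74 ± 0.719 CPM (0.66, adjusted p = 0.00924), and Cfd had 0 counts. Of the integrin chains of complement receptors, Itgam rose by 0.94 (adjusted p = 0.00774) and Itgb2 by 0.72 (adjusted p = 0.0204). Itgam shares 68.67% of its exon bases with Gm49368, and Itgb2 no longer passed without Pde2A-/- replicate D or 15. In the 7 hearts with Alb under 10 CPM, Fcna (1.31, adjusted p = 0.17) and Itgb2 (adjusted p = 0.213) did not pass.

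Among the regulators that restrain the cascade, some rose and others did not pass. Clu, clusterin, a secreted chaperone that blocks the membrane attack complex, had 209.1 ± 32.1 against 130.0 ± 14.95 CPM (log2 fold change 0.69, SE 0.099, adjusted p = 7.39e-04, edgeR), without overlap. Cd55, which speeds the decay of the enzymes that split C3, was at 25.35 ± 3.36 against 13.2 ± 1.13 CPM. Its log2 fold change of 0.94 had an adjusted p of 2.22e-05 (SE 0.089, edgeR). Cd59a, which blocks the membrane attack complex on cells, was at 27.3 ± 3.95 and 26.5 ± 1.88 CPM and did not pass (0.04, 95% interval -0.14 to 0.23). Nor did Cr1l, which shields cells from C3 (-0.10, interval -0.21 to 0.01), and Serping1, the inhibitor of the C1 proteases (0.13, interval -0.10 to 0.36).

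Other abundant genes that did not pass were Masp1, a protease of the lectin arm, with a log2 fold change of -0.01 (interval -0.18 to 0.17), the scavenger receptor gene Colec12 with 0.26 (interval -0.19 to 0.70), Lrp1 with 0.18 (interval -0.10 to 0.46) and C1qbp with -0.15 (adjusted p = 0.112, edgeR). Cd93, an endothelial surface protein once described as a C1q receptor, had 356.1 ± 24.96 against 299.9 ± 29.4 CPM. Its log2 fold change of 0.25 passed (adjusted p = 0.0332, edgeR), but not in 6 of the fits that left out 1 heart, nor in the 7 hearts with Alb under 10 CPM (adjusted p = 0.113).

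The terminal pathway forms the membrane attack complex. Of its 7 genes 3 had enough reads, C7, C8g and Hc, and none passed (edgeR), with Hc lower at an unadjusted p under 0.05. C6, C8a, C8b and C9 had between 1 and 7 counts over all hearts. Hc, which encodes C5 and was singled out after its values were seen, averaged 0.0664 ± 0.0267 CPM in knockout and 0.267 ± 0.281 in wild-type hearts, a log2 fold change of -1.96 (adjusted p = 0.0773, edgeR). Its highest value, 0.792 CPM, was in Pde2A+/+ replicate E, which also had the most Alb, and in the 7 hearts with Alb under 10 CPM its log2 fold change was -0.15 (adjusted p = 0.921).

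**Figure D5:**
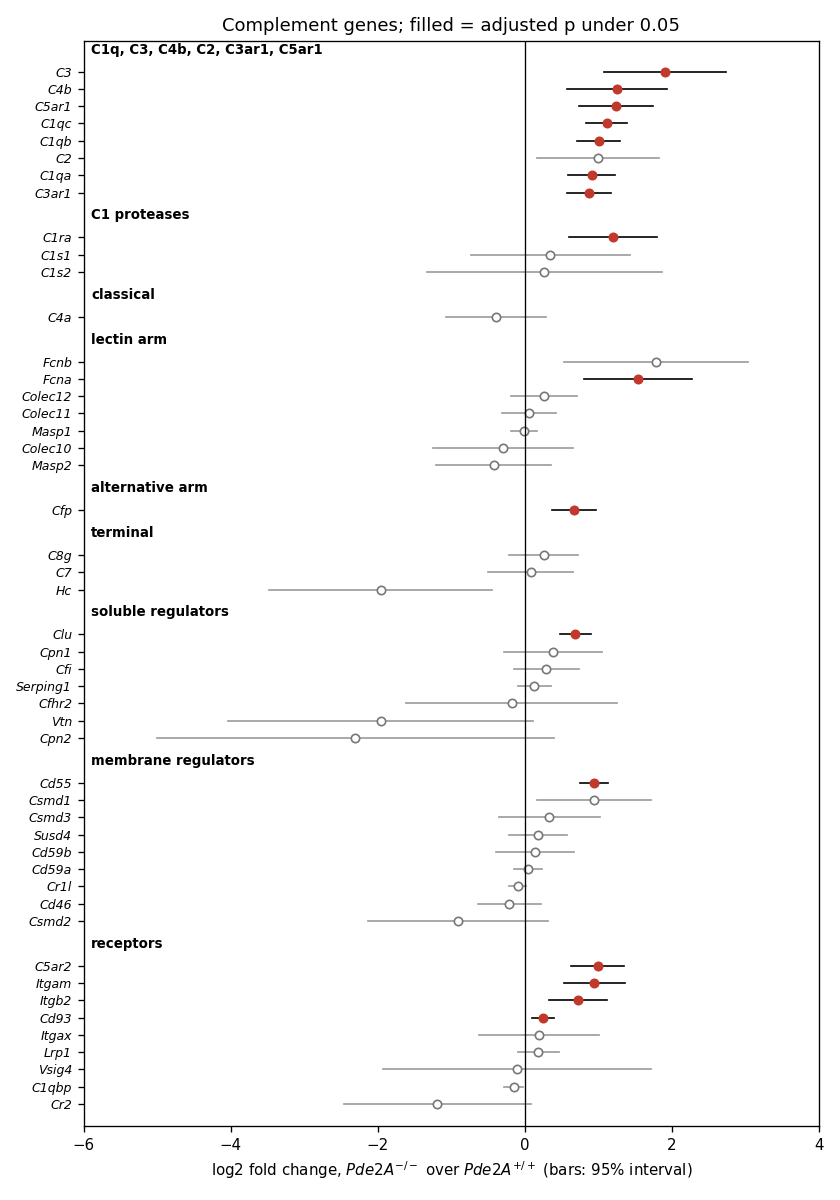
Log2 fold change of Pde2A-/- over Pde2A+/+ hearts (horizontal axis) for the complement genes reported here, grouped by role, with 95% intervals as bars and filled points where the adjusted p was under 0.05. All filled points lie to the right of 0, from 0.25 for Cd93 to 1.91 for C3, and the intervals of genes with few reads, such as Cpn2 and Vtn, are the widest.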

How the data were processed

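Stranded poly(A) libraries were made from 11 E14.5 hearts, 1 per heart, and sequenced as single-end reads. Alignment to GRCm38 was done by the authors with STAR, and the deposited values are its whole-number counts per gene, unnormalized, without regard to strand and for each strand. Reads that fall on several genes are left uncounted. The version of STAR and the annotation release are not given in the sources used here. Lines of reads on no gene were left out.

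The counts on the strand of the gene were used. Gene symbols, positions and exons came from GENCODE M21, which matched 55227 of 55487 gene identifiers. The 24177 genes that reached 10 counts summed over the hearts were compared between 5 Pde2A-/- and 6 Pde2A+/+ hearts with edgeR 4.0.16 in R 4.3.3, by TMM normalization and the quasi-likelihood F test, and p-values were adjusted by Benjamini-Hochberg over all genes tested. No covariate was used. CPM values are TMM-normalized. Ratios are of counts plus 2, on the log2 scale, and were compared over the 462 splits of 5 against 6 hearts. Likeness is the mean absolute difference of centred log2 CPM with a prior count of 2. Motifs were sought as exact words. P-values measure the spread between hearts, which may share litters.

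The 9 genes, the lists of other complement genes and of cell type markers, and the motifs were chosen with earlier results of these data known. The genes named are the 9 and other complement genes that passed or had a mean of at least 10 CPM. Also named are the 3 genes with the most similar profile, Pde2a and markers where a result turned on them. Genes that overlap the 9, Itgam or Pde2a are named too. Hc was named after its values were seen. Single results for 2 genes of the lists are not reported here, and counts and sums include them.

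The test was first tried on simulated counts with known changes. The alternatives were DESeq2 1.42.0, its size factors, filterByExpr, no filter, reads of both strands, the naming style of the replicates (letter or number) as a covariate, a fold change of at least 2, 0.5 in place of 2 counts in the ratios, C4a with C4b summed, C2 with Cfb and Gm20547 summed, and each heart left out in turn. A fit on the 7 hearts with Alb under 10 CPM was chosen after seeing the data. Depth per heart lay between 35865537 and 42835382 reads, and for genes of few reads counting error is part of the spread between hearts. The protein sequences and the promoters of 4 of the 9 genes were not used here.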

Additional observations from a re-analysis of the deposited data

Results flagged for a closer look

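In 2 of 28 groups examined, 1 heart lay farther from the nearest other heart of its genotype than Dixon's 95% limit for 6 hearts (a gap of 0.625 of the range). Chance alone would set apart about 1 in 20 such groups. The log2 ratio of C3 to C4b in Pde2A+/+ replicate 8 was 1.99, while the other Pde2A+/+ hearts had 2.8 to 3.11 (gap 0.725 of the range). The log2 ratio of C3ar1 to C5ar1 in Pde2A+/+ replicate 7 was 2.63, while the others had 1.58 to 1.88 (gap 0.708), and replicate 7 was the Pde2A+/+ heart with the least C5ar1.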

How the results depend on the processing

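The log2 fold changes of all 8 genes tested kept their direction under every alternative. Those of the 3 C1q chains and C3ar1 passed in all of them, while C3 and C5ar1 passed in all but the 7 hearts with Alb under 10 CPM (2.24 and 1.295), a fit of fewer hearts chosen after seeing the data. C4b did not pass in those hearts (1.32), without Pde2A-/- replicate D (1.113; range over single hearts left out 1.089 to 1.452), or with C4a added (0.879). C2 passed with DESeq2 (1.005) and without Pde2A-/- replicate A (1.192; range 0.77 to 1.202). The number of the 9 genes higher was 6 to 8 with single hearts left out and 4 in the 7 hearts. Over all genes, 1288 to 2887 were higher and 414 to 2165 lower with single hearts left out, 482 and 50 in the 7 hearts, and 535 and 90 with a fold change of at least 2 as well; DESeq2 called 2354 lower. Of the other complement genes 2 were higher with that fold change, 8 to 12 with single hearts left out and 7 in the 7 hearts, and 1 was lower with the naming style as a covariate (Hc), 0 to 1 with single hearts left out (C1qbp, without Pde2A+/+ replicate 11). The difference in the log2 ratio of C1qc to C1qb was 0.073 to 0.117 with single hearts left out and passed without Pde2A+/+ replicate 6 (0.117). The difference in total reads, Pde2A-/- minus Pde2A+/+, was 243500 and took the other sign without Pde2A-/- replicate B (-771646) or 14 (-96931) and without Pde2A+/+ replicate 11 (-256146) or 6 (-22353), within a range of -771646 to 970816. The cause of these changes was not tested. No paired analysis was possible because the litter of single hearts is not given. Few counted reads limit Cfb, the terminal components and, with at most 81 reads per heart, C2 and C4b. For Cfb and C2, reads that also lie within Gm20547 are left uncounted, whatever the depth.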
